A study of Rattus norvegicus with 200 samples.

Results

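The genes described here are 6 genes of cytotoxic lymphocytes, Prf1, Il2rb, Nkg7, Klrd1, Cd3e and Cd3g, out of 20361 genes counted in bulk RNA from rat brain cells labelled microglia. They were chosen by symbol, and the choice was made with their levels under different feeding schedules already known. All 6 were found, once each, and all 6 passed the filter on low counts. The libraries came from adult male wild-type Wistar rats, an outbred laboratory stock, at Zeitgeber times (ZT) 2, 6, 10, 14, 18 and 22, where ZT0 is lights on. The groups were high-fat diet (HFD) with light-feeding (33 libraries), HFD with dark-feeding (33), HFD ad libitum (34), chow with light-feeding (33), chow with dark-feeding (33) and chow ad libitum (34). Food was offered in the light phase only, in the dark phase only or at all hours. Whether every library stands for its own rat is not stated in the labels. The p-values below therefore reflect the spread between libraries, and part of that spread may be technical.

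Cytotoxic lymphocytes are natural killer (NK) cells and CD8 T cells, which kill target cells by releasing granules. Perforin, encoded by Prf1, forms pores in the target membrane through which granzymes enter. Il2rb encodes the receptor chain shared by interleukin-2 and interleukin-15, the cytokines that maintain these cells. Nkg7 encodes a membrane protein of their granules, and Klrd1 encodes CD94, the partner of NKG2 receptors that read MHC class I molecules. Cd3e and Cd3g encode chains of the CD3 complex that carries the signal of the T cell receptor, so they mark T cells in general and are not restricted to cytotoxic ones. Healthy brain tissue holds few lymphocytes, most of them in the meninges, around vessels and in the blood. In a bulk sample, fewer such cells and less RNA per cell cannot be told apart.

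Promoters of 4 of the 6 genes, as given by RefSeq on build GRCr8, are shown because the members varied together across libraries. They are the 250 bases before the annotated start, written on the strand of the gene. Prf1 lies on the plus strand at chr20:29788790-29789039 and Nkg7 on the plus strand at chr1:102981247-102981496. Cd3e lies on the minus strand at chr8:54211771-54212020 and Cd3g on the minus strand at chr8:54183919-54184168. Capitals mark matches on either strand to short motifs of factor families active in lymphocytes: T-box (TCACAC), RUNX (TGTGGT), ETS (CCGGAA or AGGAAG) and STAT (TTCNNNGAA).
Prf1: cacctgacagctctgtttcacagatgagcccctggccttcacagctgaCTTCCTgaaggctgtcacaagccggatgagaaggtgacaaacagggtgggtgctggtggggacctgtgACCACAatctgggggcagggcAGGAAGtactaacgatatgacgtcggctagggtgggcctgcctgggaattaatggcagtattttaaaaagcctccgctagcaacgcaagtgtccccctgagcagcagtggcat
Nkg7: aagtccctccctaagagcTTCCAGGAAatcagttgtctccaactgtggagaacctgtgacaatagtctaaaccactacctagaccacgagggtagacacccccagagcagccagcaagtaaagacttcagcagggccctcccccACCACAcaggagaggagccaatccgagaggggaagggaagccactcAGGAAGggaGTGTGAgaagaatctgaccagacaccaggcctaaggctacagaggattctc
Cd3e: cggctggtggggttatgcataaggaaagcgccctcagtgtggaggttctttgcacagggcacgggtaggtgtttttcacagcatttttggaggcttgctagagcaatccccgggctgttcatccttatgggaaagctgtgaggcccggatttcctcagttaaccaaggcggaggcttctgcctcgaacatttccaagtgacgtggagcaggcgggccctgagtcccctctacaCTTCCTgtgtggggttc
Cd3g: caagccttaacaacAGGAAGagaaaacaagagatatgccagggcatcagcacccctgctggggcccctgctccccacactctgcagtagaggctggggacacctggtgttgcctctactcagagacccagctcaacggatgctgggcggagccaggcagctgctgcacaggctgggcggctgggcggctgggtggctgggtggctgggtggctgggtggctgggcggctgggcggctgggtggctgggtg
An ETS match was present in all 4 windows, in Prf1 at 2 places, and 38.4% of 33360 distinct rat promoter windows of this length also hold one. A RUNX match was present in Prf1 and Nkg7 and is held by 14.5% of windows. The T-box and STAT matches were in Nkg7 alone among the 4, against 11.6% and 7.68% of all windows. None of the marked motifs overlapped another. A match is a stretch of letters and not a measured binding site.

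Total counts per library lay between 3.78 M and 11.6 M, where M (mega) stands for 10 to the power of 6, the median being 7.55 M. The members were low in abundance: the median library held 36.5 counts of Prf1, 53 of Il2rb, 15 of Nkg7, 11 of Klrd1, 29.5 of Cd3e and 22 of Cd3g. Klrd1 was at 0 in 1 of 200 libraries and the other members in none. In counts per M of the scaled library (CPM), the 6 members together averaged 25.3 CPM (8.48 to 70.3). Mbp, a marker of oligodendrocytes, averaged 3475.5 CPM and Csf1r, a marker of microglia, 302 CPM in the same libraries. Libraries of both diets carried separate title numbering, so diet and a batch that follows the numbering cannot be told apart. Title numbers of 46 or less were carried by 28 of the 34 HFD ad libitum libraries and by none of the HFD light-feeding or dark-feeding libraries. A pair of libraries stood apart, one in 5 members and one in all 6. One was HFD ad libitum at ZT6 (title number 45), where the 6 members summed to 67.3 CPM against 12.1 to 20.4 CPM in the other 4 libraries. The other was chow light-feeding at ZT18 (title number 126), with 57.0 CPM against 12.6 to 17.1 CPM in the other 5. Sums of the T cell, B cell, monocyte, erythrocyte, microglia and oligodendrocyte marker lists were also above all other libraries of the cell in both, and the neuron sum was below them.

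Other lymphocyte genes were measured too, here in CPM, which is not per length and does not rank genes. Of 22 further T cell genes 19 were measured, among them Lat (10.4 CPM on average), an adaptor of T cell receptor signalling, Bcl11b (9.56), Cd6 (8.76) and Lck (8.17), the kinase that starts the signal. Cd8a, the co-receptor of killer T cells, averaged 5.18 CPM. Among granule and NK receptor genes, Klrk1 (the activating receptor NKG2D) averaged 4.24 CPM, Gzmm 3.21 CPM, Gzmk 1.70 CPM and Gzma 1.43 CPM, the last 3 being granzymes. Gzmb was at 0 in 46 of 200 libraries and Ncr1, a receptor that defines NK cells, in 20 of 200. Ifng, the cytokine both cell types secrete on activation, was at 0 in 187 of 200 libraries and Il2 in 161. Eomes, a transcription factor of killer cells that some neurons also express, averaged 12.6 CPM per library.

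Only values per transcript length allow levels to be compared between genes. In the authors' FPKM values (fragments per kilobase and M), the order of the means was Cd3g 7.38 ± 3.63, Nkg7 4.61 ± 2.68, Prf1 3.50 ± 2.15, Il2rb 3.12 ± 1.58, Cd3e 3.03 ± 1.48 and Klrd1 1.54 ± 0.92 FPKM (SD, n = 200). The ranges over libraries of each neighbouring pair in that order overlapped, Cd3g running from 1.60 to 31.7 FPKM and Nkg7 from 0.35 to 16.4 FPKM. The mean of Il2rb and that of Cd3e lay well within an SD of each other.

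Across treatments the mean levels of Prf1, Il2rb, Nkg7 and Klrd1 were highest in the HFD groups with timed feeding, and the lowest mean of each member lay in HFD ad libitum or chow light-feeding. Differences between HFD dark-feeding and HFD ad libitum, and between chow light-feeding and chow dark-feeding, were known when the members were chosen, so the levels are given as a description. Prf1 ran from 2.15 to 18.8 CPM (median 5.36) in HFD light-feeding, from 1.45 to 17.7 (median 4.86) in HFD dark-feeding and from 1.85 to 11.2 (median 3.35) in HFD ad libitum. On chow it ran from 2.79 to 15.6 (median 4.43) with light-feeding, from 1.87 to 14.0 (median 5.37) with dark-feeding and from 1.51 to 14.4 (median 5.23) ad libitum. HFD ad libitum had the lowest median of Prf1, and the ranges of all 6 groups overlapped. Il2rb had medians of 8.32, 8.33 and 6.01 CPM in HFD light-feeding, dark-feeding and ad libitum, and of 5.56, 8.00 and 7.21 CPM in the chow groups in that order. Its highest libraries reached 25.7 CPM in HFD light-feeding and 24.8 CPM in HFD dark-feeding, against 15.3 CPM in chow ad libitum. Klrd1 averaged 1.89 ± 1.12, 2.06 ± 1.14 and 1.55 ± 0.96 CPM in HFD light-feeding, dark-feeding and ad libitum (SD, n = 33, 33 and 34). It averaged 1.19 ± 0.76, 1.60 ± 0.76 and 1.55 ± 0.85 CPM in chow light-feeding, dark-feeding and ad libitum (SD, n = 33, 33 and 34). Group means of Nkg7 lay between 2.00 CPM in chow light-feeding and 2.78 CPM in HFD dark-feeding. The CD3 genes were ordered differently, Cd3e being highest in chow dark-feeding at 5.02 ± 1.93 CPM and lowest in chow light-feeding at 3.53 ± 1.81 CPM (SD, n = 33 each). Cd3g was highest in HFD dark-feeding at 3.44 ± 1.45 CPM and lowest in chow light-feeding at 2.65 ± 1.30 CPM (SD, n = 33 each).

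**Figure D1:**
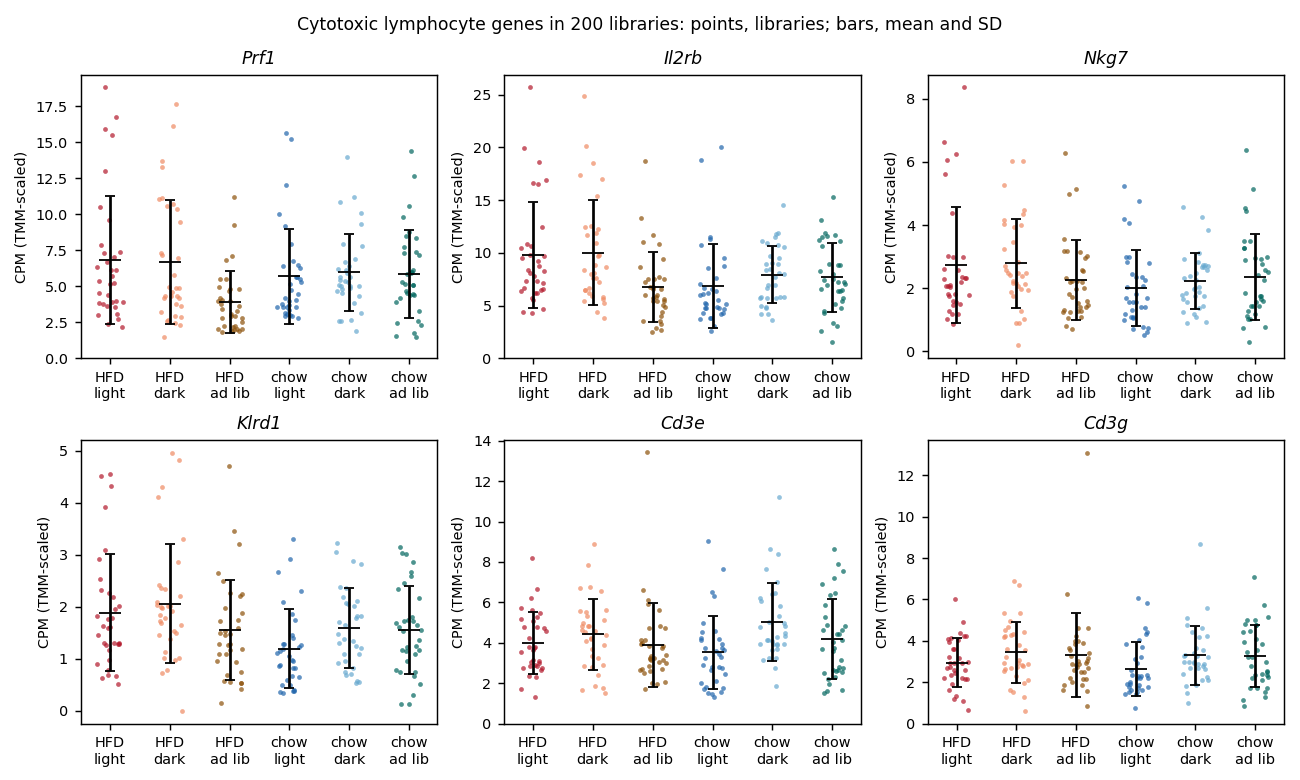
Level of each member in CPM (y axis, linear, scaled to library size) in the 6 treatments (x axis), 1 point per library, 33 or 34 per treatment, with bars for the mean and SD. The ranges overlap for every gene, and the Prf1 mean of 3.89 CPM in HFD ad libitum is the lowest of its 6 means.

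Fold changes between the HFD schedules describe the same levels with time as a factor in the fit, and are given without a test. Each has its standard error (SE) from edgeR. In HFD dark-feeding against HFD ad libitum, Prf1 differed by a log2 fold change (log2FC) of 0.75 (SE 0.19), with means of 6.67 ± 4.30 and 3.89 ± 2.14 CPM (SD, n = 33 and 34), and was higher at 6 of 6 times. Il2rb differed by 0.54 (SE 0.15), Klrd1 by 0.40 (SE 0.19) and Nkg7 by 0.30 (SE 0.17). The CD3 genes differed least, Cd3e by 0.18 (SE 0.13) and Cd3g by 0.05 (SE 0.15). In HFD light-feeding against the same ad libitum libraries the log2FC was 0.76 for Prf1 (SE 0.17), 0.51 for Il2rb (SE 0.14), 0.26 for Klrd1 (SE 0.19) and 0.25 for Nkg7 (SE 0.18). It was 0.05 for Cd3e (SE 0.14) and -0.15 for Cd3g (SE 0.15). In both comparisons Prf1 and Il2rb lay furthest above 0 and the CD3 genes closest to it.

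With HFD libraries of title numbers above 46 alone, which leaves 6 ad libitum libraries, the Prf1 difference was 0.31 (SE 0.41) for dark-feeding and 0.93 (SE 0.36) for light-feeding. Those 6 libraries had a median of 4.08 CPM of Prf1 (1.85 to 9.23), and the other 28 had 3.17 CPM (1.90 to 11.2). All 6 were collected at ZT10, ZT14 or ZT18, so the differences in this subset rest on those times alone. The split by title number therefore also differs in time of day. The Klrd1 difference for light-feeding was 1.00 (SE 0.34) in that subset. HFD light-feeding and HFD dark-feeding lay close together, with log2FC from -0.18 (Cd3g, SE 0.15) to 0.04 (Prf1, SE 0.21). In HFD ad libitum against chow ad libitum the log2FC was -0.61 for Prf1 (SE 0.17), the other 5 lying between -0.21 (Il2rb, SE 0.15) and -0.01. In HFD dark-feeding against chow dark-feeding, Klrd1 (0.35, SE 0.18), Nkg7 (0.29, SE 0.15) and Il2rb (0.29, SE 0.14) were positive and Cd3e negative (-0.20, SE 0.12). In chow light-feeding against chow dark-feeding all 6 were negative, Cd3e by -0.49 (SE 0.14), Klrd1 by -0.40 (SE 0.18) and Cd3g by -0.31 (SE 0.15).

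**Figure D2:**
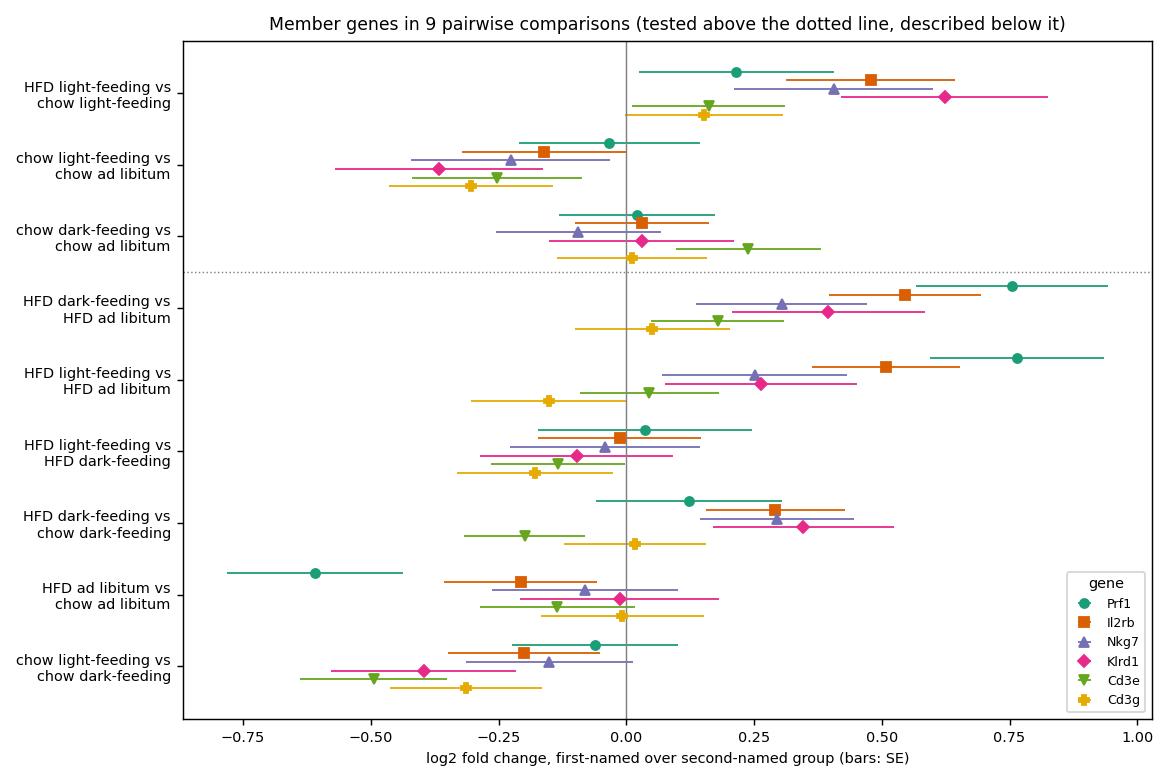
Log2 fold change of each member (x axis; bars, SE) in 9 comparisons (y axis), each the first-named group over the second-named one, with colours and shapes for genes. Prf1 lies at 0.75 and 0.76 in HFD dark-feeding and light-feeding over HFD ad libitum and at -0.61 in HFD ad libitum over chow ad libitum, while Cd3e and Cd3g stay within 0.2 of 0 in those 3.

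HFD light-feeding was tested against chow light-feeding, a diet comparison that shares no HFD ad libitum or HFD dark-feeding library. Klrd1 and Il2rb rose on HFD, and the other 4 members did not pass the test. Diet and title numbering cannot be told apart here. The chow light-feeding libraries also entered a comparison known when the members were chosen, so these p-values are not independent of that choice. Klrd1 averaged 1.89 ± 1.12 CPM in HFD light-feeding and 1.19 ± 0.76 CPM in chow light-feeding (SD, n = 33 each; log2FC 0.62, SE 0.20). Its adjusted p was 0.00802 by edgeR's quasi-likelihood test with Benjamini-Hochberg adjustment over 14393 genes, and it was higher at 5 of 6 times. Il2rb averaged 9.79 ± 5.02 CPM in HFD light-feeding and 6.87 ± 3.96 CPM in chow light-feeding (log2FC 0.48, SE 0.17, adjusted p = 0.0128) and was higher at 6 of 6 times. Its log2 differences at ZT2 and ZT6 were only 0.06 and 0.09. Nkg7 had a log2FC of 0.41 (SE 0.19, adjusted p = 0.0757), Prf1 of 0.22 (SE 0.19), Cd3e of 0.16 (SE 0.15) and Cd3g of 0.15 (SE 0.15). The 2 of 6 members called stand against 50.3% of all genes called in this comparison, 25.2% being higher and 25.1% lower on HFD, so the count itself is close to the background. The median log2FC was 0.31 over the 6 members and -0.0056 over all genes tested.

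The differences of Klrd1 and Il2rb were largest at ZT10, where the means of log2 CPM differed by 2.02 and 1.37, against at most 0.57 and 0.89 at any other time. The chow light-feeding libraries at ZT10 carried 1 unbroken run of title numbers, unlike the HFD light-feeding libraries at ZT10. A batch that follows the numbering cannot be told apart from the difference at that time. At ZT10 Klrd1 was at 1.62, 2.53, 4.33, 4.51 and 4.56 CPM in HFD light-feeding, against 0.337, 0.364, 0.397, 0.815, 0.879 and 1.15 CPM in chow light-feeding. These values did not overlap, but ZT10 was singled out for its large difference. The share of all genes without overlap at ZT10 was not counted. Il2rb was at 6.70, 9.18, 16.9, 19.9 and 25.7 CPM in HFD light-feeding, against 2.63, 4.77, 4.89, 6.19, 7.06 and 7.61 CPM in chow light-feeding, and 1 of the 5 HFD libraries lay within the chow range. Prf1 was at 3.89, 6.33, 15.5, 16.7 and 18.8 CPM in HFD light-feeding, against 3.58 to 6.44 CPM in chow light-feeding. The same 3 HFD libraries were the highest of the 5 in Prf1, Il2rb, Nkg7, Klrd1 and Cd3e, but not in Cd3g. Without ZT10 neither Il2rb nor Klrd1 passed, Il2rb having a log2FC of 0.28 (SE 0.17, adjusted p = 0.19) and Klrd1 of 0.29 (SE 0.20, adjusted p = 0.242), while 43.6% of all genes were still called. Without ZT14, Il2rb had a log2FC of 0.38 (SE 0.18, adjusted p = 0.0805) and Klrd1 remained called. Without the chow light-feeding library that stood apart (title number 126), 3 members and 51.1% of all genes were called. Nkg7 joined with a log2FC of 0.50 (SE 0.19, adjusted p = 0.0204). That library was left out because these members were high in it. Its removal therefore raises their log2FC, and this p-value is not independent of that choice.

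Related genes moved in both directions between HFD and chow under light-feeding. Which cells carried the RNA of the listed genes was not tested, and a call need not reflect the cells a list is named for. The counts below stand against 25.2% of all genes higher and 25.1% lower. Of 21 granule and NK receptor genes tested, 4 rose and 2 fell. Gzmk, a granzyme, rose by a log2FC of 0.58 (SE 0.21), Cd226, an activating receptor, by 0.45 (SE 0.14), Klrk1 by 0.36 (SE 0.15) and Crtam by 0.23 (SE 0.04). Unc13d, which readies granules for release, fell by 0.25 and Stxbp2, which acts in the same step, fell by 0.11. Of 13 transcription factors and effectors of killer cells 6 rose and 0 fell, among them the chemokine receptors Cxcr6 (log2FC 0.62, SE 0.21) and Cxcr3 (0.62, SE 0.17), the chemokine Ccl5 (0.59, SE 0.18) and the transcription factor Tbx21 (0.52, SE 0.19). Zeb2 and Ikzf2 also rose, by 0.23 and 0.30. They averaged 166 and 15.9 CPM over all libraries, and Crtam averaged 50.8 CPM. Of 17 further T cell genes 0 rose and 2 fell, Bcl11b by a log2FC of -0.24 and Cd6 by -0.23. Of 9 genes of the interleukin-2 and interleukin-15 pathway, the kinase gene Jak1 (log2FC 0.08) and Stat5a (0.14) rose and Jak3 (-0.23) fell, Jak3 being the kinase bound to the common receptor chain.

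Markers of other cells were called in that comparison as well, where 25.1% of all genes were lower. Astrocyte, endothelium and choroid plexus lists had 7 of 7, 6 of 6 and 3 of 4 genes lower. The astrocyte list summed to 271 to 577 CPM in HFD light-feeding and 363 to 1142.5 CPM in chow light-feeding. Endothelium genes summed to 15.5 to 42.1 CPM in HFD light-feeding and 27.9 to 87.6 CPM in chow light-feeding, and choroid plexus genes to 19.9 to 127 CPM in HFD light-feeding and 44.9 to 178 CPM in chow light-feeding. Of 7 oligodendrocyte genes 3 rose, with 25.2% of all genes higher. Of 7 erythrocyte genes tested 3 fell, and the summed list ran from 68.8 to 2122.8 CPM (median 165) in HFD light-feeding and from 122 to 6744.5 CPM (median 267) in chow light-feeding; Ahsp was at 0 in 119 of 200 libraries. With the erythrocyte mean in the model, 5 members and 45.9% of all genes were called, Nkg7 at a log2FC of 0.74 (SE 0.18), Prf1 at 0.52 (SE 0.18) and Cd3e at 0.41 (SE 0.14) joining the others. Of 9 B cell genes 1 rose, the list summing to 26.5 to 67.9 CPM in HFD light-feeding and 28.7 to 90.2 CPM in chow light-feeding, with Pax5 at 0 in 51 of 200 libraries. Of 11 microglia genes 5 fell, the list summing to 557 to 1107.4 CPM in HFD light-feeding and 768 to 1533.7 CPM in chow light-feeding. Their part in the result was not tested beyond the erythrocyte term.

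On chow, feeding time was tested against ad libitum feeding. In chow light-feeding against chow ad libitum 0 of 6 members passed the test by edgeR, against 1.6% of all genes, and 0 passed by DESeq2 or by limma on FPKM. The share of all genes called by DESeq2 or limma is not given here. At an unadjusted p under 0.05 the count was 0 of 6, against 19% of all genes. All 6 log2FC were negative, from -0.03 (Prf1, SE 0.18) to -0.37 (Klrd1, SE 0.20, adjusted p = 0.322). The chow light-feeding libraries entered a comparison known when the members were chosen, so these directions and p-values are not independent of that choice. Klrd1 averaged 1.19 ± 0.76 CPM in chow light-feeding and 1.55 ± 0.85 CPM in chow ad libitum, and Cd3g 2.65 ± 1.30 CPM and 3.27 ± 1.49 CPM in the same groups (SD, n = 33 and 34). Cd3g was lower in chow light-feeding at 6 of 6 times, but its log2 difference at ZT22 was only -0.0013. Of 17 further T cell genes and 21 granule and NK receptor genes, 0 passed in either direction.

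In chow dark-feeding against chow ad libitum 0 of 6 members passed by edgeR, DESeq2 or limma, and 0% of all genes were called by edgeR. The share called by DESeq2 or limma is not given here. At an unadjusted p under 0.05 the count was 0 of 6, against 11.8% of all genes. The largest log2FC was that of Cd3e at 0.24 (SE 0.14, adjusted p = 0.491), with 5.02 ± 1.93 CPM in chow dark-feeding and 4.18 ± 1.97 CPM in chow ad libitum (SD, n = 33 and 34). Cd3e was higher at 6 of 6 times, but its log2 differences at ZT6 and ZT18 were only 0.00056 and 0.020. The other 5 lay between -0.09 (Nkg7, SE 0.16) and 0.03. The chow dark-feeding libraries also entered a comparison known when the members were chosen, so these directions and p-values are not independent of that choice. A p above the threshold does not show that the levels are equal.

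Over the day, time of collection was tested over all 200 libraries with treatment as a factor, as a cosine and sine of 24 h. Nkg7 and Cd3e changed with time, both curves fitted over all treatments peaking near the middle of the light phase and being lowest at night. Within single treatments, where no member passed with all libraries, the fitted peaks lay apart. Those of Nkg7 ran from ZT 2.32 (HFD dark-feeding) to ZT 10.7 (HFD light-feeding). Those of Cd3e ran from ZT 2.34 (chow light-feeding) to ZT 11.3 (HFD light-feeding). These differences in phase were not tested. Nkg7 had a median of 2.63 CPM at ZT2, 2.29 at ZT6, 2.25 at ZT10, 2.19 at ZT14, 1.49 at ZT18 and 1.89 at ZT22. Its peak-to-trough change was 0.49 on the log2 scale with a peak at ZT 6.88 (adjusted p = 0.0177, edgeR). Cd3e had medians of 4.51, 3.93, 4.62, 3.72, 3.08 and 3.26 CPM at ZT2, 6, 10, 14, 18 and 22, a peak-to-trough change of 0.40 and a peak at ZT 7.21 (adjusted p = 0.0147). Il2rb (0.33, adjusted p = 0.0825), Klrd1 (0.38, adjusted p = 0.117), Cd3g (0.29, adjusted p = 0.146) and Prf1 (0.22, adjusted p = 0.454) did not pass. The 2 of 6 members called stand against 41% of all genes, so the share is no higher than the background.

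The sum of the 6 members was lowest at ZT18, with a median of 16.8 CPM (9.19 to 57.0, n = 34). It was highest at ZT10, with 24.4 CPM (15.2 to 70.3, n = 33), and at ZT2, also with 24.4 CPM (8.48 to 62.6, n = 34). The median at ZT6 was 23.7 CPM. Calls rested on single times: without ZT18 neither gene passed (Nkg7 adjusted p = 0.63, Cd3e 0.163), without ZT10 neither did, and without ZT22 only Nkg7 did. With title number in the model as a smooth curve 0 members passed, Nkg7 having an adjusted p of 0.0517 and Cd3e of 0.123. Without the pair of libraries that stood apart, Il2rb also passed (adjusted p = 0.0467). Those libraries were left out for their high values of the members, so that p-value is not independent of the choice. The share of all genes called under these settings is not given here. A change particular to the members cannot be read from them. With all libraries kept, other lists had 12 of 17 T cell genes, 14 of 21 granule and NK receptor genes, 8 of 9 B cell genes, 5 of 6 monocyte genes and 12 of 12 MHC genes that passed, beside 41% of all genes. In further lists 4 of 11 microglia genes, 1 of 5 border-associated macrophage genes, 1 of 4 choroid plexus genes and 0 of 7 erythrocyte genes did. Itgal, the integrin chain of LFA-1, had a peak-to-trough change of 0.63 and a peak at ZT 7.31, Klrk1 of 0.50 at ZT 6.37 and Lck of 0.44 at ZT 6.4.

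**Figure D3:**
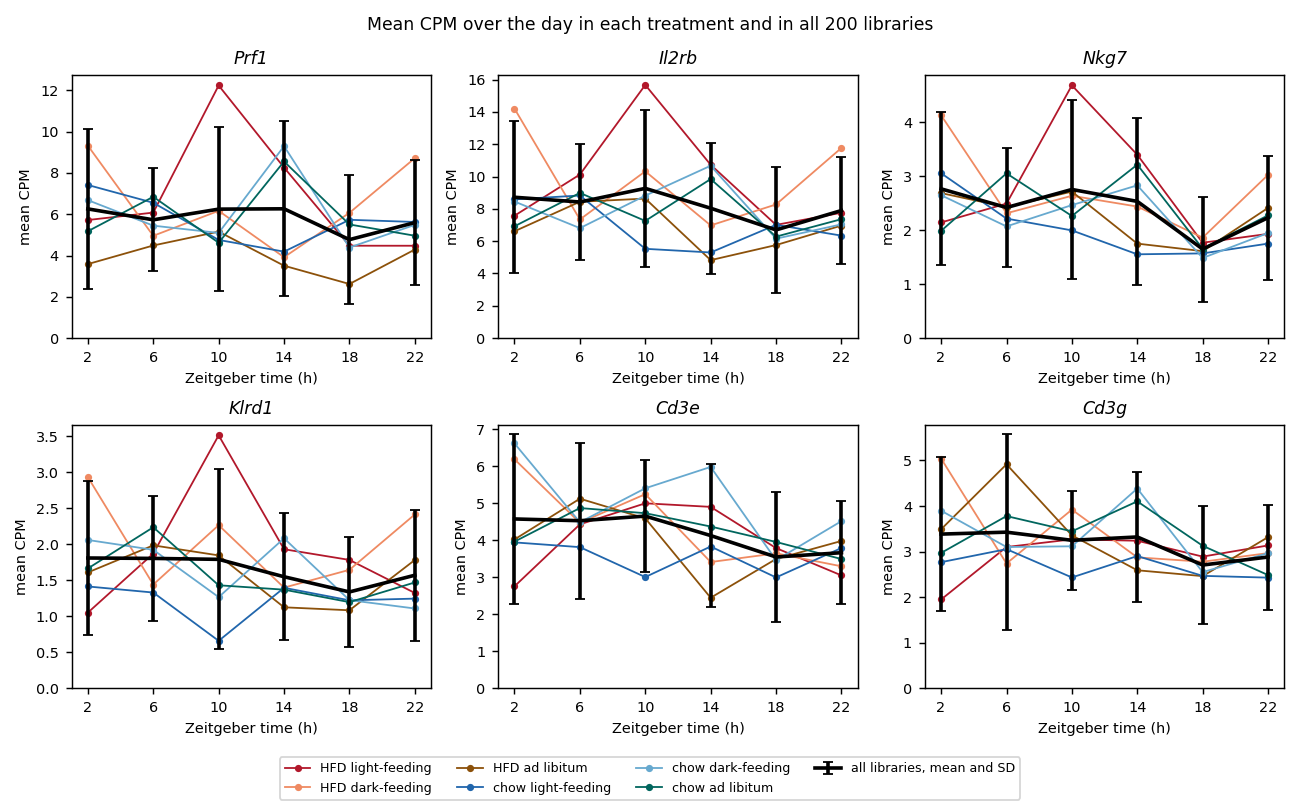
Mean CPM of each member (y axis, from 0) at 6 Zeitgeber times in hours (x axis), with a coloured line for each treatment and a black line with SD bars for all 200 libraries. Nkg7 and Cd3e are lower at ZT18 than at ZT10, and the HFD light-feeding line stands highest at ZT10 for Prf1, Il2rb, Nkg7 and Klrd1.

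Within single treatments 0 of 6 members passed in each of the 6 fits by edgeR, while 0.841% of all genes passed in HFD light-feeding, 27.5% in HFD dark-feeding, 19.6% in HFD ad libitum, 20.3% in chow light-feeding, 22.9% in chow dark-feeding and 4.56% in chow ad libitum. In HFD light-feeding 5 of 6 members had an unadjusted p under 0.05, against 16.2% of all genes. Klrd1 there had a peak-to-trough change of 1.32 with a peak at ZT 11.2 (adjusted p = 0.069), Prf1 of 1.30 at ZT 10.5 (adjusted p = 0.0837) and Nkg7 of 1.27 at ZT 10.7 (adjusted p = 0.1). In HFD dark-feeding 3 of 6 had an unadjusted p under 0.05, against 39.4% of all genes, and the fitted peaks of Prf1 and Il2rb lay at ZT 0.34 and ZT 1.32. The difference between these phases was not tested. In HFD ad libitum 1 member, Cd3g, had an unadjusted p under 0.05, against 33.8% of all genes. In chow light-feeding, dark-feeding and ad libitum 0 members did, against 35.9%, 37.9% and 21.7% of all genes. Without the library of title number 126, 2 members passed in chow light-feeding, Il2rb with a peak-to-trough change of 0.97 (adjusted p = 0.0191) and Nkg7 of 1.24 (adjusted p = 0.0216), with 26.6% of genes called. That library was left out for its high values of these members at ZT18, so these p-values are not independent of that choice.

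The highest cell of treatment and time by the median sum was HFD light-feeding at ZT10, with libraries at 20.2, 25.3, 51.1, 54.9 and 70.3 CPM. HFD dark-feeding at ZT2 came next, with 24.3, 26.1, 38.8, 39.1, 60.0 and 62.6 CPM. In both cells the libraries were spread widely, the lowest lying near the median of all libraries. Prf1 in HFD dark-feeding at ZT2 was at 2.90 and 3.22 CPM in 2 libraries and at 10.4 to 17.7 CPM in the other 4. Chow dark-feeding at ZT14 (17.5 to 55.1 CPM) and chow ad libitum at ZT14 (9.07 to 46.3 CPM) followed. The lowest was chow light-feeding at ZT18, where 5 libraries lay at 12.6 to 17.1 CPM and 1 at 57.0 CPM. HFD ad libitum at ZT14, with 10.4 to 26.7 CPM, was the next lowest, and chow light-feeding at ZT2 the third, with 11.2, 11.4, 15.4, 40.5 and 57.4 CPM.

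**Figure D4:**
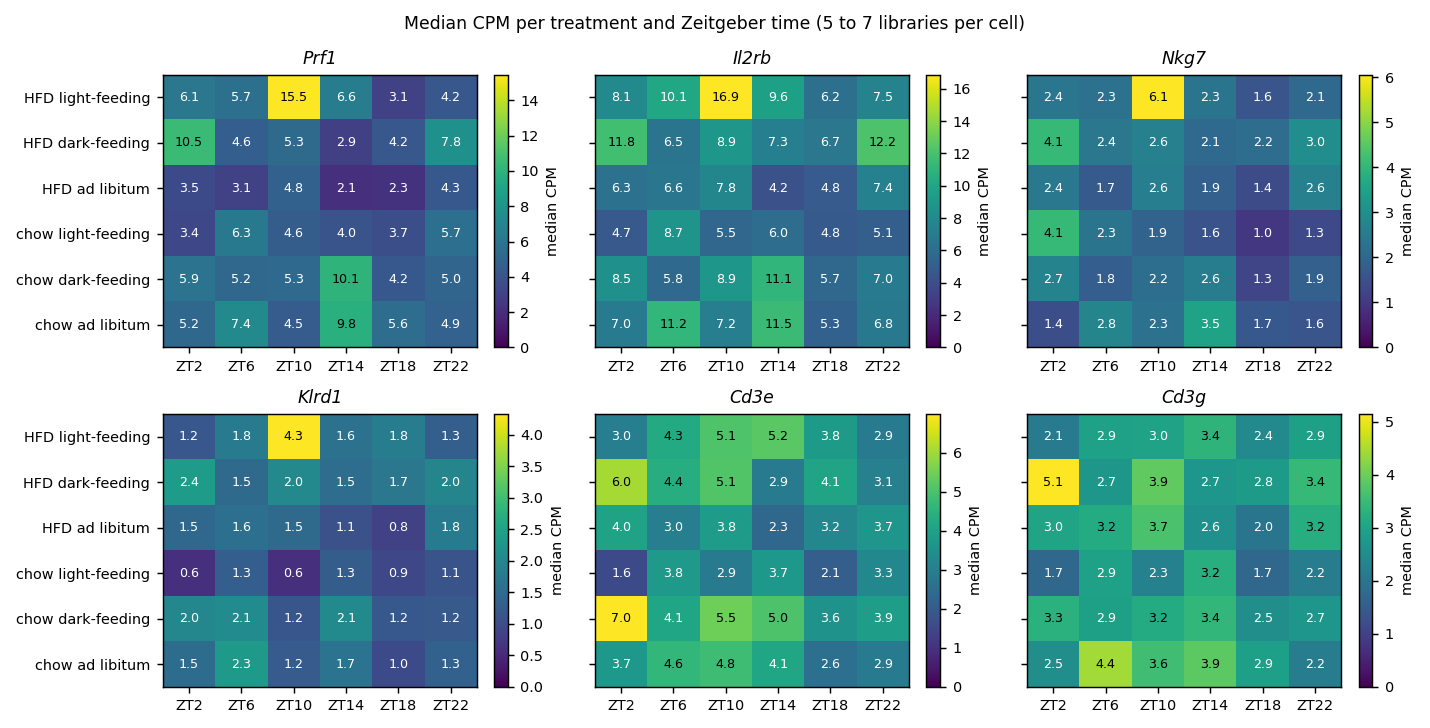
Median CPM of each member in 36 cells of treatment (rows) and Zeitgeber time (columns), 5 to 7 libraries per cell, with the value printed and a colour scale from 0 for each gene. HFD light-feeding at ZT10 is the brightest cell for Prf1, Il2rb, Nkg7 and Klrd1, at 15.5, 16.9, 6.06 and 4.33 CPM, while Cd3e is brightest in chow dark-feeding at ZT2 and Cd3g in HFD dark-feeding at ZT2.

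The members rose and fell together between libraries of the same treatment and time. After the mean of each cell was removed from log2 CPM, Pearson's r between members ran from 0.51 (Klrd1 and Cd3e) to 0.83 (Prf1 and Il2rb) across 200 libraries. Cd3e and Cd3g correlated at 0.75. Prf1 and Cd3e correlated at 0.41 in the HFD libraries and at 0.76 in the chow libraries (n = 100 each). These are descriptions across libraries that share a preparation and a sequencing depth. The mean of the 6 members correlated with total counts at -0.10 and with the erythrocyte mean at 0.45.

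Among all tested genes outside the members, the 10 most alike to their mean were Itgal (r = 0.91), Lcp1 (0.90), Rac2 (0.89), Ets1 (0.89), Lck (0.89), Spn (0.88), Slfn5 (0.88), Arhgdib (0.88), Ptprc (0.87) and Adgre5 (0.87). Most of these are genes of white blood cells in general: Ptprc encodes CD45, Spn encodes CD43, Lcp1 encodes an actin-bundling protein and Rac2 a small GTPase of blood cells. Lck is expressed mainly in T cells, and Ets1 encodes a lymphocyte transcription factor. All 10 kept r of at least 0.84 in both the HFD and the chow libraries. Ccl5, a chemokine stored by killer cells, followed at 0.86, Klrk1 and Il2rg at 0.85 and Cd8a at 0.84. The median r was 0.65 over 17 further T cell genes, 0.64 over 21 granule and NK receptor genes, 0.79 over 6 monocyte genes, 0.71 over 12 MHC genes, 0.56 over 9 B cell genes, 0.46 over 11 microglia genes and 0.44 over 7 erythrocyte genes. It was 0.36 over 7 oligodendrocyte genes, -0.23 over 8 neuron genes and -0.03 over all genes tested. Eomes (r = -0.11) and Crtam (r = -0.34), both listed here with genes of killer cells, were negatively correlated with the members, and Gzmb followed at 0.48. Eomes and Crtam averaged 12.6 and 50.8 CPM, and which cells carried their RNA was not tested. The 6 members, each part of the mean it is compared with, ranged from 0.76 (Klrd1) to 0.92.

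**Figure D5:**
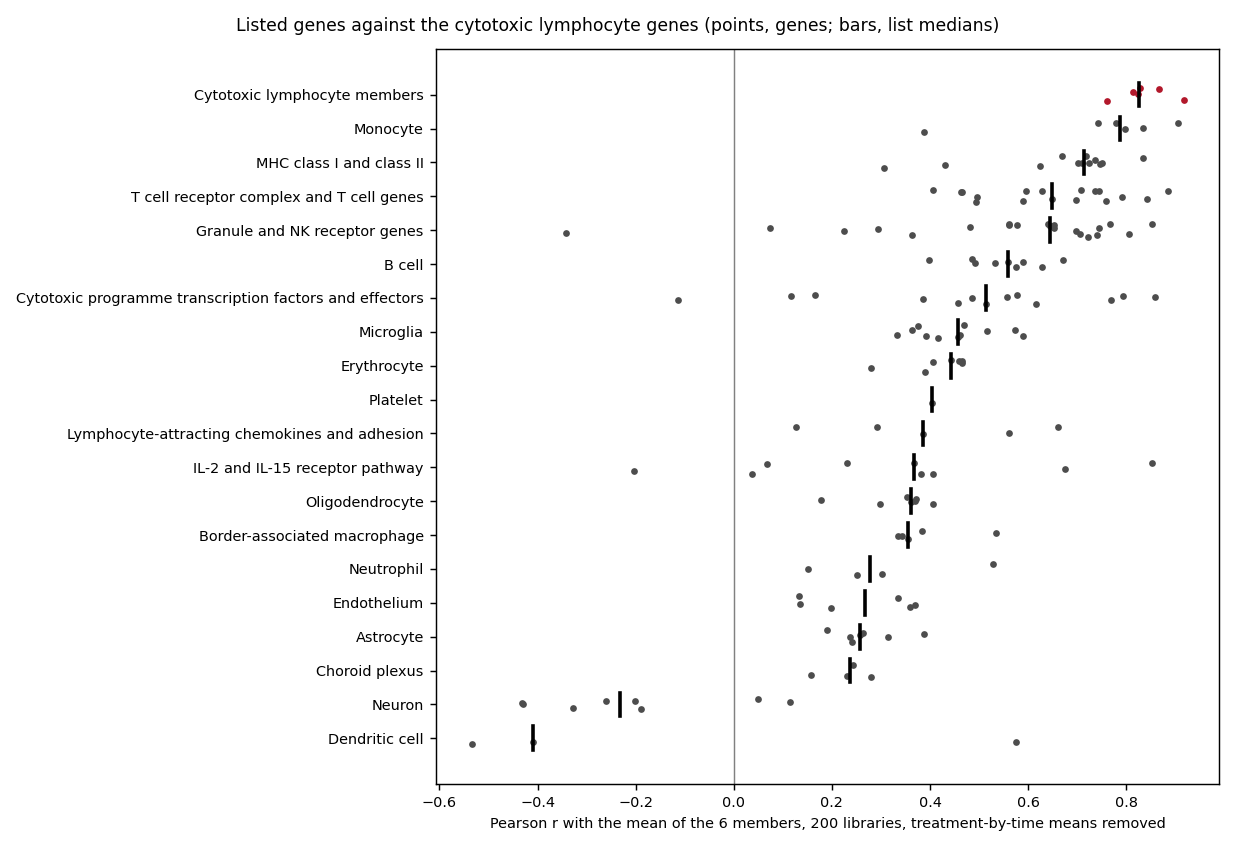
Pearson's r of each listed gene with the mean of the 6 members across 200 libraries (x axis), cell means removed, grouped by list (y axis) with list medians as bars; red points are the members. Monocyte, MHC, T cell and granule lists have medians from 0.64 to 0.79, and the neuron list has -0.23.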

How the data were processed

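Bulk RNA was measured in 200 libraries. Per the labels' protocols, bead-enriched messenger RNA went into strand-specific libraries. Reads were placed on Rnor_6.0 according to the submitters' processing notes; which aligner and counter were used is not given in the sources used here. Each estimated count deposited by the authors is an expected count per gene that was not normalised (20361 genes). Of the entries 8.03% were not whole, so all were rounded, whereas the design had assumed raw counts. FPKM values of 17611 genes were also deposited by the authors.

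Libraries were scaled by TMM (trimmed mean of M values), which also gives the CPM. The quasi-likelihood test of edgeR 4.0.16 (R 4.3.3) was run on the libraries of both groups compared, time being a factor, and p-values were adjusted by Benjamini-Hochberg over 14393 genes passing edgeR's filter on low counts (threshold 0.05). The prior count of log2 CPM was 2. Alternatives were DESeq2 1.42.0, limma 3.58.1 on log2(FPKM + 0.1), RLE scaling, no filter, a title number spline, the erythrocyte mean as covariate, and left-out times or libraries. Tests were checked on simulated counts, drawn independently with a dispersion of 0.1 for every gene and no outlying libraries. That setting is simpler than these data, so the check does not cover the spread of the members. The members, the 20 gene lists and the tests were chosen with earlier results of these data known. Comparisons with HFD ad libitum or HFD dark-feeding libraries, and of chow light-feeding with chow dark-feeding, are descriptions. By rule the text names the members, the 10 genes most alike to them, up to 4 abundant genes of each list and listed genes past a test; other listed genes were chosen after their values were seen. 1 listed gene is not reported here.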

Additional observations from a re-analysis of the deposited data

Results flagged for a closer look

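In each treatment and time of 4 to 7 libraries, the highest and lowest library of each member was compared with its neighbours by Dixon's test. Of 216 sets, 25 held a library past the 95% critical value, where chance gives about 1 in 20 for normally distributed values. The test was run on linear CPM, and the members varied together across libraries, so the sets are not independent. That rate therefore need not hold here.

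The HFD ad libitum library at ZT6 with title number 45 accounted for 5 of them. It held 11.2 CPM of Prf1, 18.7 of Il2rb, 6.28 of Nkg7, 13.4 of Cd3e and 13.1 of Cd3g, while the highest of the other 4 libraries held 3.96, 6.77, 1.99, 3.85 and 3.85 CPM. Its T cell list summed to 211.8 CPM against 58.7 to 84.4 CPM in the others, its monocyte list to 546 against 152 to 202 CPM, and its neuron list to 1938 against 2670 to 2842 CPM.

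The chow light-feeding library at ZT18 with title number 126 accounted for 6. It held 15.2 CPM of Prf1, 20.1 of Il2rb, 4.75 of Nkg7, 3.30 of Klrd1, 7.66 of Cd3e and 6.07 of Cd3g, above at most 5.17, 5.55, 1.40, 1.11, 2.83 and 2.34 CPM in the other 5 libraries. Its T cell list summed to 154.9 CPM against 44.8 to 68.4 CPM, and its monocyte list to 443 against 115 to 162 CPM. The part of these other cell types in the members' values was not tested.

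The other 14 lay in libraries flagged in fewer members, some in a single member and some in a pair of members. In HFD light-feeding, a library at ZT18 held 9.59 CPM of Prf1 and 12.5 CPM of Il2rb, and a library at ZT6 held 4.37 CPM of Nkg7. In HFD dark-feeding a library at ZT10 held 4.32 CPM of Klrd1, and in HFD ad libitum a library at ZT14 held 9.23 CPM of Prf1. In chow light-feeding a library at ZT22 held 11.5 CPM of Il2rb and 4.61 CPM of Cd3g, and one at ZT6 was low in Nkg7 at 1.67 CPM. In chow dark-feeding, Nkg7 reached 4.56 CPM in a library at ZT10 and 2.93 CPM in one at ZT18, and Cd3e 7.64 CPM in one at ZT22. In chow ad libitum a library at ZT22 held 6.44 CPM of Cd3e and 5.01 CPM of Cd3g, and one at ZT2 was low in Il2rb at 2.62 CPM.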

How the results depend on the processing

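Of the counts and medians recomputed under other settings, 172 stayed within 1.5 times or the spread between libraries and 10 moved. In HFD light-feeding against chow light-feeding, 5 members were called with the erythrocyte mean in the model, 0 without ZT10 and 1 without ZT14, against 2. In the daily rhythm over all treatments, 0 were called with a title number spline, 0 without ZT10, 0 without ZT18, 1 without ZT22 and 1 with time as a factor, against 2. The shares of all genes called in these rhythm fits are not given here. Within chow light-feeding 2 were called without the library that stood apart, against 0. The median log2FC in HFD light-feeding against HFD ad libitum was 0.77 with title numbers above 46. The ad libitum libraries of that subset came from ZT10, ZT14 and ZT18 only. That subset and the setting without the libraries that stood apart were chosen after seeing the data. The cause of these changes was not tested.

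Directions reversed in members that had not passed a test. Prf1 was -0.025 without ZT10 in HFD light-feeding against chow light-feeding, and in chow light-feeding against chow ad libitum 0.024 with the erythrocyte mean and 0.14 without ZT14. In chow dark-feeding against chow ad libitum, Nkg7 was 0.051 in FPKM with limma and 0.0027 without ZT6. Prf1 was -0.21 with the spline, -0.075 with the erythrocyte mean, -0.059 without ZT2, -0.00047 without ZT10 and -0.0022 without ZT22. Il2rb was -0.15, -0.049, -0.025 and -0.018 with the spline, the erythrocyte mean, without ZT2 and without ZT10. Klrd1 was -0.030 with the erythrocyte mean, -0.037 without ZT2 and -0.081 without ZT14. Cd3g was -0.19 with the spline, -0.078 with the erythrocyte mean, -0.076 without ZT2, -0.0047 without ZT14 and -0.036 without ZT22. No paired analysis was possible because replicate numbers were given in accession order and pair no samples. Depth was low for all members, the median library holding between 11 counts (Klrd1) and 53 counts (Il2rb).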

Other observations

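The 10 libraries with the highest sum of the 6 members came from 5 of the 6 treatments, and none from chow ad libitum. The highest was HFD light-feeding at ZT10 with 70.3 CPM, followed by the HFD ad libitum library at ZT6 with 67.3 CPM and HFD dark-feeding libraries at ZT2 with 62.6 and 60.0 CPM. The library with 54.9 CPM, HFD light-feeding at ZT10, ranked 135 of 200 in Cd3g.

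Of 12 MHC genes tested in HFD light-feeding against chow light-feeding, 6 rose, 4 fell and 2 did not pass. The 6 that rose code for class II molecules, which present antigen to CD4 T cells, or for proteins that serve them. RT1-Ba rose by a log2FC of 0.73 (SE 0.13), RT1-Da by 0.64 (SE 0.14), RT1-Db1 by 0.63 (SE 0.14), RT1-Bb by 0.59 (SE 0.14), Cd74 by 0.51 (SE 0.14) and Ciita, the regulator of class II genes, by 0.61 (SE 0.14). Among those that fell, RT1-A1 had a log2FC of -0.15 (SE 0.06), RT1-A2 of -0.16 (SE 0.06) and RT1-CE10 of -0.22 (SE 0.08), and Tap2, which loads class I molecules, of -0.16 (SE 0.04). B2m, the light chain of class I, had a log2FC of 0.02 (SE 0.09, adjusted p = 0.855) and Tap1 of -0.09 (SE 0.10, adjusted p = 0.428). In this comparison 50.3% of all genes passed by edgeR.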
